A study of Danio rerio with 16 samples.

Results

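Zebrafish embryos carrying knockouts of lipf and pla2g15 were compared with wild-type siblings at 48 hours post fertilisation (hpf), an age at which the embryo still lives on its yolk. The comparison used 8 of the 16 libraries of the series, chosen by genotype and age as labelled: 4 mutant libraries (genotype lipf/pla2g15 knockout, no treatment, called mut48 here) and 4 sibling libraries (genotype WT, group sib, no treatment, called sib48). The remaining 8 libraries hold the same genotypes at 24 hpf. They enter only the test of the difference between ages and the fit of all 16 libraries described below. The RNA was bulk RNA, labelled as body, while the design text of the series speaks of whole embryos. The mutant alleles, the way the embryos were genotyped and the number of embryos in a library were not given in the sources used here. No label states that the libraries came from different clutches, so the p-values reflect how far these libraries differ within a group, which could be technical spread.

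Lipf belongs to the acid lipases, which cut fatty acids from triglycerides at low pH, and in mammals it is known as gastric lipase. Pla2g15 is a lysosomal phospholipase that cuts fatty acids from phospholipids. In the fish embryo the yolk syncytial layer, the cell layer around the yolk, breaks down stored lipid and packs it with apolipoproteins into particles that feed the body. Inside cells, lysosomes digest lipid, protein and sugar chains, and their genes are driven in mammals by the Tfeb and Tfe3 factors. Cellular sterol is sensed by Srebf2, fatty acid synthesis is driven by Srebf1, and fatty acid oxidation is driven by the Ppar receptors. The title of the series concerns yolk lipid mobilisation, Hnf4 and lipoproteins, and the lists of genes below follow these roles.

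In the 48 hpf comparison edgeR called 711 genes higher and 482 lower in mut48, which is 3.05% and 2.07% of the 23306 genes tested, at a Benjamini-Hochberg adjusted p under 0.05. Together these were 1193 genes, or 5.12%. Of them 150 (0.644% of tested genes) were at least 2-fold higher and 122 (0.523%) at least 2-fold lower, and the median log2 fold change of all tested genes was 0.00. The split of the calls depended on the libraries in the fit: with all 16 libraries in one fit 691 genes were higher and 1115 lower, and 929 of the called genes were shared. That fit still compares mut48 with sib48, but takes the error from both ages. For the called genes named here, log2 fold changes hardly moved in it. Its median log2 fold change over 24300 tested genes was -0.037, and the part of this shift in the split was not tested. Left-out libraries mattered too, with 411 higher and 253 lower without mut48 replicate 2, 318 and 187 without sib48 replicate 2, 369 and 240 without sib48 replicate 3, and 350 and 189 without sib48 replicate 4. Levels are given as counts per 1e6 counts of a library after TMM scaling (CPM), in the order of replicates 1 to 4 of each group. A gene's own log2 fold change is mut48 over sib48 and comes with its standard error (SE). The libraries held 39633985 to 45338682 counts in mut48 and 38188286 to 43623138 in sib48, and the first principal component, with 28.8% of the variance, separated the genotypes.

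The libraries were not alike within genotype. The replicates mut48 1 and 2 stood apart from mut48 3 and 4 on the second component, which held 15.6% of the variance. Levels of several interferon, complement and stress genes were highest in mut48 replicate 3, the heart muscle genes myl7 and nppa were nearly absent from mut48 replicate 4, and several yolk lipoprotein genes were highest in sib48 replicate 1. Markers of muscle, neurons, epidermis, blood and vessels were all present, as whole embryos or bodies would give. Defining markers of the yolk syncytial layer and of hepatocytes were mixed. Near 0 were mxtx2 (0 to 0.217 CPM in mut48 and 0 to 0.0956 CPM in sib48), ttr (0.0482 to 0.177 CPM in mut48 and 0.0741 to 0.247 CPM in sib48) and fabp10a (0 to 0.145 CPM in mut48 and 0 to 0.382 CPM in sib48). Abundant were rbp4 (125 to 188 CPM in mut48 and 171 to 239 CPM in sib48), slc40a1 (78.0 to 91.0 CPM in mut48 and 64.6 to 73.5 CPM in sib48), tfa (148 to 269 CPM in mut48 and 243 to 416 CPM in sib48) and cp (7.12 to 62.6 CPM in mut48 and 18.1 to 42.9 CPM in sib48). The RNA of these embryos came from many tissues, so fewer cells of a type and less RNA per cell cannot be told apart.

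The targeted gene lipf was much lower in the mutants, and the transcript of pla2g15 was not called. The lipf transcript was at 2.45, 2.39, 2.12 and 3.15 CPM in mut48 and 32.2, 18.9, 17.3 and 24.3 CPM in sib48. That was a 9.19-fold decrease (log2 fold change -3.2 with SE 0.210, adjusted p = 5.93e-06 by edgeR). Every mutant library lay far below every sibling library. The pla2g15 transcript was at 29.4, 41.9, 42.5 and 48 CPM in mut48 and 64.1, 62.1, 40.7 and 54.9 CPM in sib48 (log2 fold change -0.45 with SE 0.159, adjusted p = 0.12 by edgeR). Here the groups overlapped, and sib48 replicate 3 lay within the range of the mutants. A knockout need not lower the transcript of its gene, so pla2g15 does not check the labels.

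**Figure D1:**
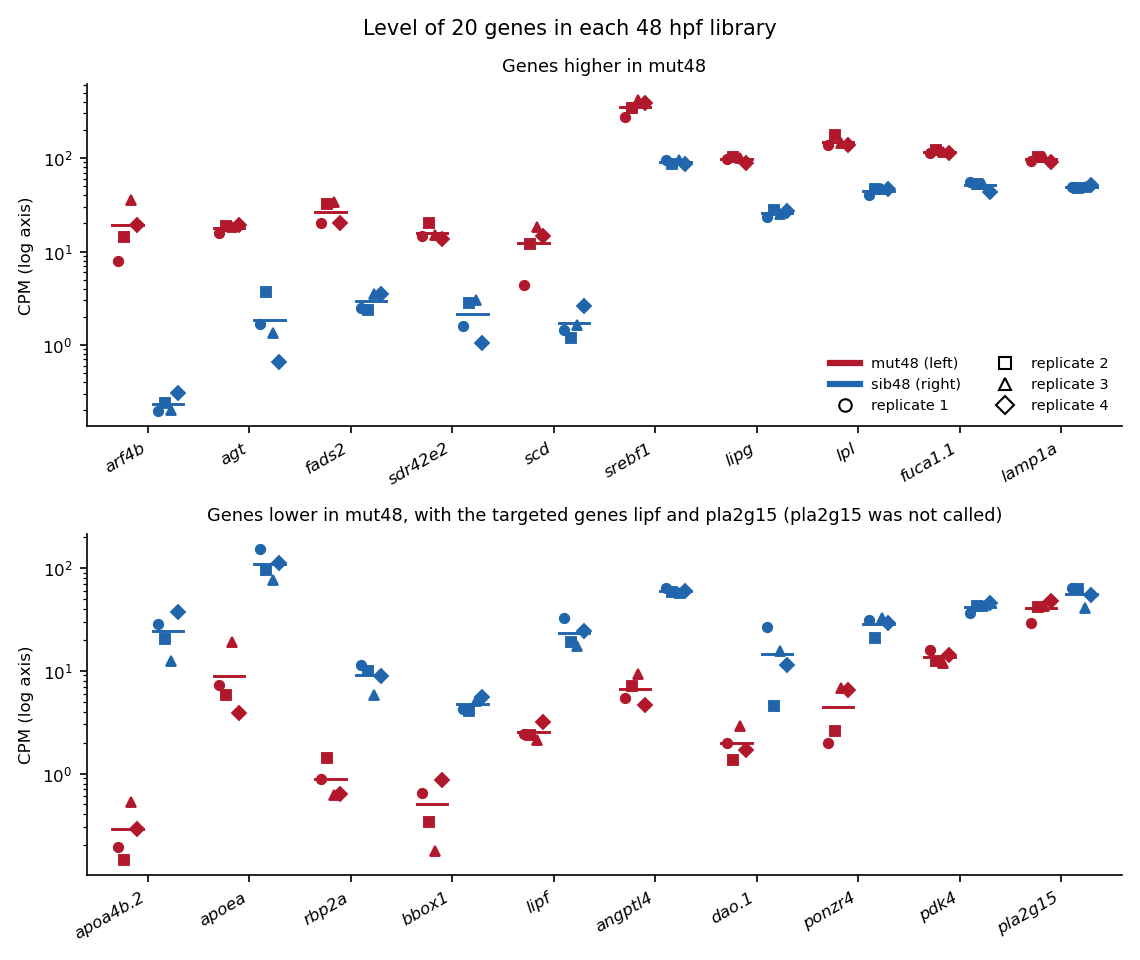
Level of 20 genes in each library (CPM on a log axis), mut48 to the left of sib48, with 1 symbol per replicate and a bar at the mean of the 4 libraries. In the upper panel every mut48 library lies above every sib48 library, and in the lower panel every mut48 library lies below every sib48 library for each gene but pla2g15.

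Lysosomal genes were higher across several classes of enzyme. Over 4 lists of lysosomal genes (enzymes for lipid, protein and sugar chains, and membrane proteins), 40 of 114 tested genes were called higher and 2 lower, against 3.05% and 2.07% of all tested genes, and the median log2 fold change was 0.36. The largest increase was 2.63-fold. The 2 lower genes were lipf itself and the protease gene ctsll. The plot of called lysosomal and autophagy genes gives each gene with its error.

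Proteases showed the most calls among lysosomal genes. Of 23 tested protease genes, 16 were higher and 1 lower (median log2 fold change 0.64). The gene tpp1, for a peptidase that trims proteins in the lysosome, was at 50.4, 61.1, 56.7 and 52.5 CPM in mut48 and 30.7, 27.3, 28.8 and 25.2 CPM in sib48. That was a 1.97-fold increase (log2 fold change 0.98 with SE 0.0909, adjusted p = 8.42e-05 by edgeR). The cathepsin B gene ctsba was 1.76-fold higher at 143, 166, 163 and 135 CPM in mut48 and 80.2, 88.4, 88.3 and 87.7 CPM in sib48 (log2 fold change 0.82 with SE 0.0845, adjusted p = 0.000184 by edgeR). The abundant cathepsin L gene ctsla was 2.18-fold higher at 702, 971, 1164 and 963 CPM in mut48 and 469.6, 453, 408 and 412 CPM in sib48 (log2 fold change 1.13 with SE 0.126, adjusted p = 0.000361 by edgeR). The legumain gene lgmn, for a protease that also activates cathepsins, was 1.66-fold higher (log2 fold change 0.73 with SE 0.0917, adjusted p = 0.000858 by edgeR). In each of these genes all 4 mutant libraries exceeded all 4 sibling libraries. Cathepsin genes ctsa, ctsc, ctsd, ctsh, ctsk and ctsz also rose, with log2 fold changes from 0.64 for ctsd to 0.87 for ctsh. The cathepsin S gene ctss2.1 had the largest fold change among proteases, at 2.11, 7.55, 10.7 and 6.15 CPM in mut48 and 2.81, 2.39, 2.4 and 2.47 CPM in sib48 (log2 fold change 1.39 with SE 0.36, adjusted p = 0.0449 by edgeR), but mut48 replicate 1 lay within the sibling range. The lower gene ctsll was at 0.719, 0.675, 0.840 and 1.16 CPM in mut48 and 1.48, 2.72, 1.47 and 2.25 CPM in sib48 (log2 fold change -1.22 with SE 0.308, adjusted p = 0.0407 by edgeR). The calls of ctss2.1 and ctsll were lost in most fits that left out a library, with highest adjusted p-values of 0.124 and 0.142 by edgeR, both without sib48 replicate 2. Higher protease genes numbered 11 without sib48 replicate 2, with the replicate number as a block, or with all 16 libraries in one fit. Among the calls lost in the fit of 16 libraries were ctsba, ctsc and ctsh (edgeR adjusted p = 0.0689, 0.190 and 0.469).

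Enzymes that take sugars and sulfate groups from glycans and glycolipids were also higher. Of 39 tested genes 13 were higher and 0 lower (median log2 fold change 0.34). The higher genes numbered 10 without mut48 replicate 2 or 3 or sib48 replicate 2, 3 or 4, and 14 without mut48 replicate 4. The fucosidase gene fuca1.1 was at 113, 121, 116.9 and 113 CPM in mut48 and 56.0, 53, 52.1 and 43.8 CPM in sib48, 2.27-fold higher (log2 fold change 1.18 with SE 0.0846, adjusted p = 9.77e-06 by edgeR). The replicates of both groups lay close together. The hexosaminidase gene hexb, for an enzyme that breaks down gangliosides, was at 64.1, 71.7, 67.3 and 64.6 CPM in mut48 and 34.3, 31.3, 28.2 and 34.7 CPM in sib48. The transcript rose 2.08-fold (log2 fold change 1.06 with SE 0.0863, adjusted p = 2.55e-05 by edgeR). The galactosaminidase gene naga was 2.02-fold higher (log2 fold change 1.01 with SE 0.115, adjusted p = 0.000392 by edgeR), and gnsb, for a sulfatase of heparan sulfate breakdown, was 1.75-fold higher (log2 fold change 0.80 with SE 0.101, adjusted p = 0.000825 by edgeR). The gene igf2r, for the receptor that carries newly made hydrolases to lysosomes, was 1.46-fold higher (log2 fold change 0.54, adjusted p = 0.0110 by edgeR).

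Of 20 tested genes for lysosomal lipid hydrolases and lipid exporters, 7 were higher and 1, lipf, was lower (median log2 fold change 0.29). The cholesterol exporter gene npc2 was at 83.3, 102, 94.7 and 88.6 CPM in mut48 and 60.3, 63.7, 56.3 and 56.7 CPM in sib48, 1.55-fold higher (log2 fold change 0.64 with SE 0.0825, adjusted p = 0.00109 by edgeR). The gene scarb2a, for a membrane protein that delivers glucocerebrosidase, was at 265, 318, 292 and 282 CPM in mut48 and 205, 198, 214 and 196 CPM in sib48. This amounted to a 1.42-fold rise (log2 fold change 0.51 with SE 0.0749, adjusted p = 0.00276 by edgeR). The sphingomyelinase gene smpd1 was 1.5-fold higher (log2 fold change 0.59, adjusted p = 0.0120 by edgeR). With all 16 libraries in one fit the call of npc2 was lost (edgeR adjusted p = 0.412). The number of higher genes was 4 without mut48 replicate 2, sib48 replicate 2 or sib48 replicate 4, and 3 with the replicate block or with all 16 libraries, and the calls of ppt1 and psap, at log2 fold changes of 0.32 and 0.37, were among those lost.

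A smaller share of membrane protein genes than of the other lysosomal lists was called, and none of the vacuolar proton pump, which acidifies the lysosome. Of 32 tested lysosomal membrane genes 30 had a positive log2 fold change (median 0.29), and DESeq2 called 9 higher. By edgeR 4 were higher and 0 lower, or 12.5% higher against 3.05% of all tested genes. The most abundant of them, lamp1a, for a heavily glycosylated protein lining the lysosome, was at 93.9, 102, 101.4 and 90.1 CPM in mut48 and 48.5, 47.4, 49.3 and 51.6 CPM in sib48, 1.97-fold higher (log2 fold change 0.98 with SE 0.0729, adjusted p = 1.5e-05 by edgeR). The 8 values formed 2 tight, separate groups. The phosphatase gene pip4p1b was 1.94-fold higher (log2 fold change 0.95 with SE 0.145, adjusted p = 0.00341 by edgeR). The cystine exporter gene ctns (log2 fold change 0.66, adjusted p = 0.0161 by edgeR) and glmp (log2 fold change 0.40, adjusted p = 0.0322 by edgeR) rose less. The call of ctns was lost without sib48 replicate 4 (edgeR adjusted p = 0.0526) and that of glmp in 6 of the 8 fits without a library, with a highest edgeR adjusted p of 0.103 without sib48 replicate 2. Without sib48 replicate 4 the list had 2 higher genes. When all 16 libraries were fitted together, pip4p1b lost its call (edgeR adjusted p = 0.0516). Of 26 tested proton pump genes edgeR called 0, while an unadjusted p under 0.05 was found for 8 and an adjusted one by DESeq2 for 3. Their median log2 fold change was 0.07, and the smallest p belonged to atp6ap1b, an accessory subunit (log2 fold change 0.27 with SE 0.0842, adjusted p = 0.0821 by edgeR).

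Among 53 tested autophagy genes and Tfeb family members, 10 were higher and 0 lower (median log2 fold change 0.19). The transcription factor gene tfe3a was at 32.9, 34.4, 50.2 and 37.4 CPM in mut48 and 21.9, 20.4, 22.2 and 18.5 CPM in sib48. Its level was 1.86-fold higher (log2 fold change 0.90 with SE 0.130, adjusted p = 0.00241 by edgeR), with mut48 replicate 3 above the other mutants. Its relatives tfeb (log2 fold change 0.11, adjusted p = 0.711 by edgeR) and tfe3b (log2 fold change 0.16, adjusted p = 0.545 by edgeR), chosen after their values were seen, were not called. Genes for the folliculin complex, which holds Tfe factors in check when nutrients are plentiful, were also higher. These were flcn (1.47-fold, log2 fold change 0.55, adjusted p = 0.0127 by edgeR), fnip1 (1.37-fold, log2 fold change 0.45, adjusted p = 0.0269 by edgeR) and si:ch211-42i9.8, which RefSeq lists under fnip2 (19.8, 19.8, 21.8 and 21.1 CPM in mut48 and 12.7, 12.6, 9.94 and 11.5 CPM in sib48, log2 fold change 0.82 with SE 0.108, adjusted p = 0.00120 by edgeR). The cargo receptor gene sqstm1 was at 15.1, 17.5, 26.2 and 18 CPM in mut48 and 10.4, 9.82, 10.9 and 10.4 CPM in sib48, 1.84-fold higher (log2 fold change 0.88 with SE 0.154, adjusted p = 0.00759 by edgeR). A further cargo receptor gene, nbr1a, was 1.4-fold higher (log2 fold change 0.49, adjusted p = 0.00760 by edgeR). The count of higher genes was 5 without mut48 replicate 2 or sib48 replicate 2, and fnip1 was among those lost in some fits (highest edgeR adjusted p 0.0840, without sib48 replicate 4).

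**Figure D2:**
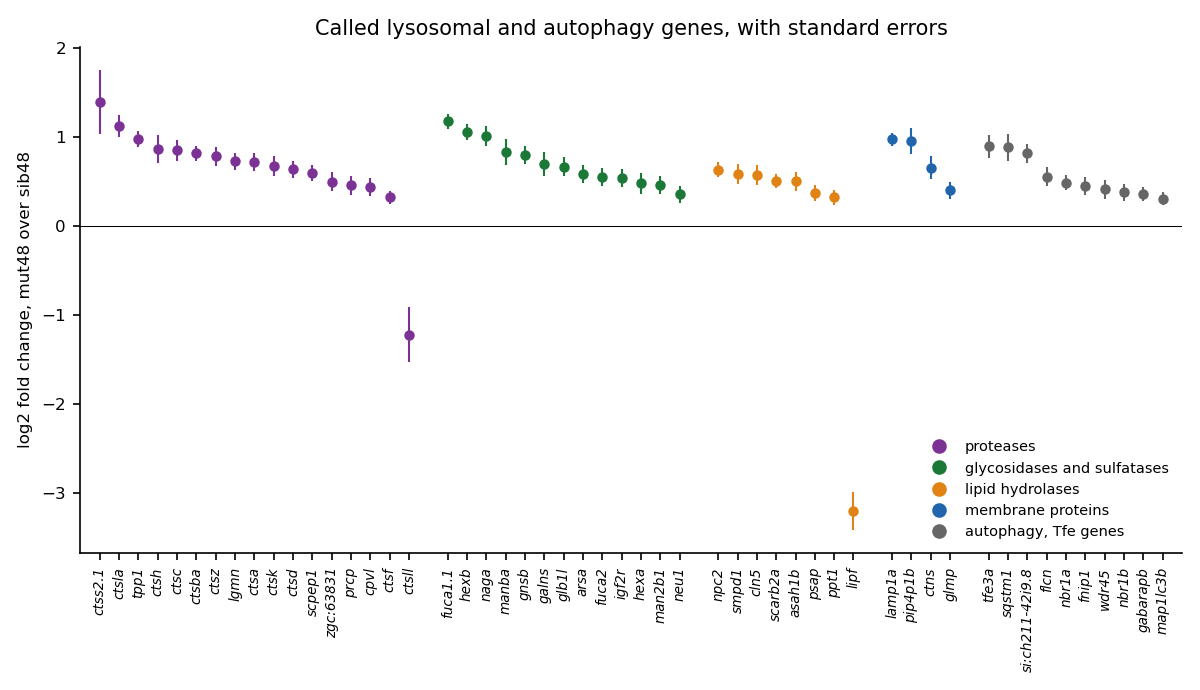
Log2 fold change, mut48 over sib48, of every called lysosomal and autophagy gene, with its standard error, grouped by class. All points but those of lipf (-3.20) and ctsll (-1.22) lie above 0, and most lie below 1.

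Genes of sterol synthesis and uptake were higher at some steps of the pathway and not at others. Of 31 tested genes 11 were higher and 0 lower (median log2 fold change 0.45). A negative log2 fold change, down to -0.65, was found for 8 of them, and 1 was called lower without sib48 replicate 1. The gene insig1, which retains the sterol sensor in the endoplasmic reticulum and is itself a target of Srebf2, was at 79.7, 104, 124 and 131 CPM in mut48 and 39.4, 41.2, 42.6 and 42.7 CPM in sib48. That was a 2.65-fold increase (log2 fold change 1.4 with SE 0.131, adjusted p = 8.42e-05 by edgeR). Every mutant library was above every sibling library, and mut48 replicate 1 was the lowest of the mutants. The regulator srebf2 was at 85.9, 109, 100.2 and 81.9 CPM in mut48 and 55.9, 64.2, 63.8 and 74.9 CPM in sib48 (log2 fold change 0.54 with SE 0.110, adjusted p = 0.0162 by edgeR). Its call was lost without sib48 replicate 2 (edgeR adjusted p = 0.0540). The gene hmgcra, for the rate-limiting reductase of the pathway, was at 6.79, 13.6, 15.4 and 8.4 CPM in mut48 and 1.98, 4.68, 4.48 and 4.01 CPM in sib48, 2.91-fold higher (log2 fold change 1.54 with SE 0.298, adjusted p = 0.0128 by edgeR). The more abundant copy hmgcrb, chosen after its values were seen, was at 33.9, 32.6, 36.1 and 33.7 CPM in mut48 and 34.9, 38.3, 36.5 and 41.5 CPM in sib48 and was not called (log2 fold change -0.15, adjusted p = 0.319 by edgeR).

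Later steps of sterol synthesis were called where the sterol ring is formed and first trimmed. The demethylase gene cyp51 was at 30.4, 50.0, 40.4 and 21 CPM in mut48 and 10.1, 15, 10.8 and 15.8 CPM in sib48. The transcript rose 2.74-fold (log2 fold change 1.46 with SE 0.235, adjusted p = 0.00485 by edgeR). The reductase gene tm7sf2 was 1.64-fold higher (log2 fold change 0.71, adjusted p = 0.0160 by edgeR). The epoxidase gene sqlea (log2 fold change 0.81, adjusted p = 0.0448 by edgeR) and the cyclase gene lss (log2 fold change 1.27, adjusted p = 0.0338 by edgeR) were higher too, but lost the call in 6 and 4 of the 8 fits without a library, with highest edgeR adjusted p-values of 0.126 and 0.1, both without sib48 replicate 2. Uptake of lipoproteins is controlled by the receptor genes ldlra and ldlrb and by mylipa, whose product removes the receptor. The mylipa transcript was 2.15-fold higher at 22, 36.6, 37.7 and 42.1 CPM in mut48 and 15.3, 15.6, 15.5 and 18 CPM in sib48 (log2 fold change 1.1 with SE 0.166, adjusted p = 0.00318 by edgeR). The ldlrb transcript was 1.56-fold higher at 43.9, 61.1, 60.7 and 47.6 CPM in mut48 and 28.4, 36.1, 34.6 and 37.3 CPM in sib48 (log2 fold change 0.64 with SE 0.124, adjusted p = 0.0125 by edgeR). The ldlra transcript was highest in mut48 replicate 3 at 6.31, 7.40, 18.8 and 9.06 CPM in mut48 and 3.80, 4.88, 3.80 and 5.36 CPM in sib48 (log2 fold change 1.22 with SE 0.301, adjusted p = 0.0368 by edgeR), and its log2 fold change was 0.77 without that library. Its call was lost without any 1 of the sib48 libraries (highest edgeR adjusted p 0.0945, without sib48 replicate 3). Over the whole list, the number of higher genes ran from 7 without sib48 replicate 2 to 13 without mut48 replicate 4.

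**Figure D3:**
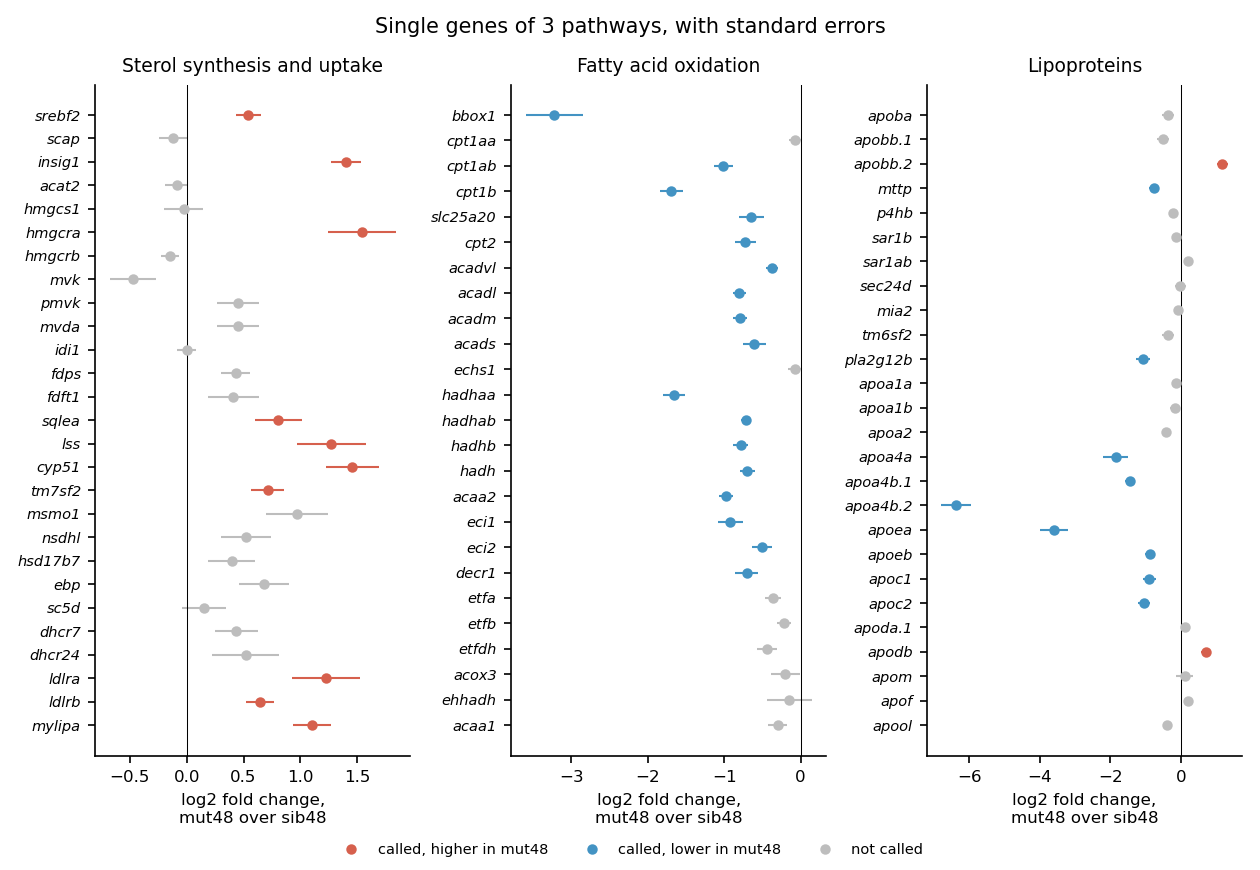
Log2 fold change, mut48 over sib48, with standard error, of the genes of 3 pathways, coloured by whether edgeR called them. Sterol genes run from hmgcra at 1.54 to uncalled genes near or below 0, the called genes of fatty acid oxidation all lie below 0, and apoa4b.2 (-6.37) and apoea (-3.59) lie farthest from 0 among lipoprotein genes.

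Fatty acid synthesis had some of the largest changes of the comparison. Among 40 tested genes that build fatty acids and triglycerides, 10 were higher and 2 lower (median log2 fold change 0.07). The lipogenic regulator srebf1 was at 272, 341, 418 and 388 CPM in mut48 and 94.7, 86.1, 94.3 and 85.6 CPM in sib48. This amounted to a 3.93-fold rise (log2 fold change 1.98 with SE 0.119, adjusted p = 3.48e-06 by edgeR). The groups were far apart, and mut48 replicate 1 was again the lowest mutant. The gene fads2, for the desaturase that starts the synthesis of long polyunsaturated fatty acids, was at 20.1, 32.5, 33.7 and 20.4 CPM in mut48 and 2.47, 2.39, 3.53 and 3.55 CPM in sib48, 8.94-fold higher (log2 fold change 3.16 with SE 0.218, adjusted p = 7.46e-06 by edgeR). The stearoyl-CoA desaturase gene scd, which makes oleate, was at 4.36, 12.2, 18.4 and 14.6 CPM in mut48 and 1.43, 1.2, 1.63 and 2.58 CPM in sib48. Its level was 7.26-fold higher (log2 fold change 2.86 with SE 0.383, adjusted p = 0.00138 by edgeR). The acetyl-CoA carboxylase gene acaca, the committed step of synthesis, was at 51.4, 52.2, 52.9 and 42.4 CPM in mut48 and 26.1, 30.5, 21.2 and 25.2 CPM in sib48, 1.93-fold higher (log2 fold change 0.95 with SE 0.114, adjusted p = 0.0006 by edgeR). By the RefSeq gene table, fads2 lies on the chromosome of pla2g15 and scd on that of lipf.

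Genes for the activation of fatty acids were higher as well. The acyl-CoA synthetase gene acsl4a was at 131, 154, 201 and 183 CPM in mut48 and 61.6, 70.25, 62.6 and 68.5 CPM in sib48. That was a 2.54-fold increase (log2 fold change 1.35 with SE 0.121, adjusted p = 5.99e-05 by edgeR). Its relative acsl3b was 1.67-fold higher at 183, 209, 221 and 199 CPM in mut48 and 113, 125, 121 and 127 CPM in sib48 (log2 fold change 0.74 with SE 0.0780, adjusted p = 0.000215 by edgeR). The 2 lower genes were the elongase gene elovl6 (28.5, 27.7, 23.4 and 23.2 CPM in mut48 and 38.6, 35.9, 36.6 and 43.1 CPM in sib48, log2 fold change -0.59 with SE 0.0987, adjusted p = 0.00637 by edgeR) and dgat2, for an enzyme that makes triglyceride (9.40, 14.8, 7.08 and 11 CPM in mut48 and 33.8, 28.3, 15.4 and 22.2 CPM in sib48, log2 fold change -1.24 with SE 0.246, adjusted p = 0.0147 by edgeR). Both calls were lost with all 16 libraries in one fit (edgeR adjusted p = 0.119 for elovl6 and 0.480 for dgat2). The call of dgat2 was also lost without sib48 replicate 2 (edgeR adjusted p = 0.0521). It was also the only called gene, and lower, among 18 tested genes of lipid droplets and lipolysis. That made 5.56% of this list, near the 5.12% of all tested genes called in either direction. The monoacylglycerol acyltransferase gene mogat3a, of another route to triglyceride, was 1.86-fold higher (log2 fold change 0.90, adjusted p = 0.0113 by edgeR).

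Genes of mitochondrial fatty acid oxidation were lower at several steps. The list of fatty acid oxidation and Ppar targets had 49 tested genes, of which 19 were lower and 3 higher (median log2 fold change -0.30). Entry into mitochondria needs carnitine and the carnitine palmitoyltransferases. The carnitine synthesis gene bbox1 was at 0.647, 0.337, 0.177 and 0.872 CPM in mut48 and 4.27, 4.09, 5.05 and 5.58 CPM in sib48, 9.34-fold lower (log2 fold change -3.22 with SE 0.375, adjusted p = 0.000475 by edgeR). The muscle form cpt1b was at 3.24, 3.47, 2.85 and 3.85 CPM in mut48 and 9.75, 11.4, 11.6 and 10.4 CPM in sib48. The transcript fell 3.22-fold (log2 fold change -1.69 with SE 0.145, adjusted p = 4.01e-05 by edgeR), and cpt1ab was at 28.2, 26.4, 18.5 and 20.3 CPM in mut48 and 49.4, 49.7, 45 and 44.4 CPM in sib48, 2.02-fold lower (log2 fold change -1.01 with SE 0.127, adjusted p = 0.000825 by edgeR). In all 3 genes the groups did not overlap. The liver form cpt1aa, chosen after its values were seen, was at 34.9, 38.5, 36.2 and 33.3 CPM in mut48 and 36.9, 35.8, 37 and 40.1 CPM in sib48 and was not called (log2 fold change -0.068, adjusted p = 0.668 by edgeR).

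Genes for the oxidation spiral itself were lower too. Of the acyl-CoA dehydrogenases, acadl was at 22.5, 21.3, 21.8 and 21 CPM in mut48 and 35.1, 39.8, 34.9 and 41.2 CPM in sib48 (log2 fold change -0.80 with SE 0.0862, adjusted p = 0.000248 by edgeR) and acadm at 35.5, 36, 35.5 and 32.9 CPM in mut48 and 54.9, 64.6, 54.1 and 68.1 CPM in sib48 (log2 fold change -0.79 with SE 0.0909, adjusted p = 0.000446 by edgeR). The trifunctional protein genes hadhaa, hadhab and hadhb were all lower, hadhaa the most, at 10.7, 11.2, 10.8 and 7.82 CPM in mut48 and 28.1, 38.6, 28.4 and 32.5 CPM in sib48. This amounted to a 3.15-fold fall (log2 fold change -1.66 with SE 0.139, adjusted p = 3.28e-05 by edgeR). The hadhab transcript was 1.64-fold lower with values that hardly varied within genotype, 68.6, 65.8, 68.9 and 67.9 CPM in mut48 and 112, 117.05, 106.5 and 110.3 CPM in sib48 (log2 fold change -0.72 with SE 0.0670, adjusted p = 8.42e-05 by edgeR). The thiolase gene acaa2 was 1.97-fold lower at 17.1, 16.8, 17.2 and 14.6 CPM in mut48 and 32, 33.6, 28.6 and 35.2 CPM in sib48 (log2 fold change -0.98 with SE 0.0970, adjusted p = 0.000144 by edgeR). The peroxisomal gene ehhadh (log2 fold change -0.15, adjusted p = 0.818 by edgeR), chosen after its values were seen, was not called, and its groups overlapped. Whether it differed from the mitochondrial genes was not tested.

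The switch genes downstream of the Ppar receptors were among the clearest of the comparison. The gene angptl4, for a secreted inhibitor of lipoprotein lipase, was at 5.47, 7.16, 9.27 and 4.6 CPM in mut48 and 63.8, 58.2, 57.2 and 60.1 CPM in sib48, 9.01-fold lower (log2 fold change -3.17 with SE 0.177, adjusted p = 2.27e-06 by edgeR). The kinase gene pdk4, which shuts off pyruvate oxidation when fat is burnt, was at 15.9, 12.4, 12 and 14.1 CPM in mut48 and 36.3, 43, 42.4 and 45.9 CPM in sib48. Its level was 3.08-fold lower (log2 fold change -1.62 with SE 0.112, adjusted p = 7.46e-06 by edgeR). The receptor genes themselves moved the other way. The pparab transcript was at 20.7, 18.9, 18.7 and 19.4 CPM in mut48 and 8.2, 10.28, 7.88 and 7.51 CPM in sib48, 2.29-fold higher (log2 fold change 1.2 with SE 0.12, adjusted p = 0.000155 by edgeR), and pparaa was 1.49-fold higher (log2 fold change 0.57, adjusted p = 0.0392 by edgeR). The call of pparaa was lost in 5 of the 8 fits without a library (highest edgeR adjusted p 0.123, without sib48 replicate 2). The third higher gene was the fatty acid binding protein gene fabp3 (563, 565, 568 and 473 CPM in mut48 and 286, 369.7, 397 and 433 CPM in sib48, log2 fold change 0.55 with SE 0.116, adjusted p = 0.0196 by edgeR), whose call was lost without mut48 replicate 2 or sib48 replicate 2 (edgeR adjusted p up to 0.0625). Only 1 gene of the list was higher in those 2 fits.

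**Figure D4:**
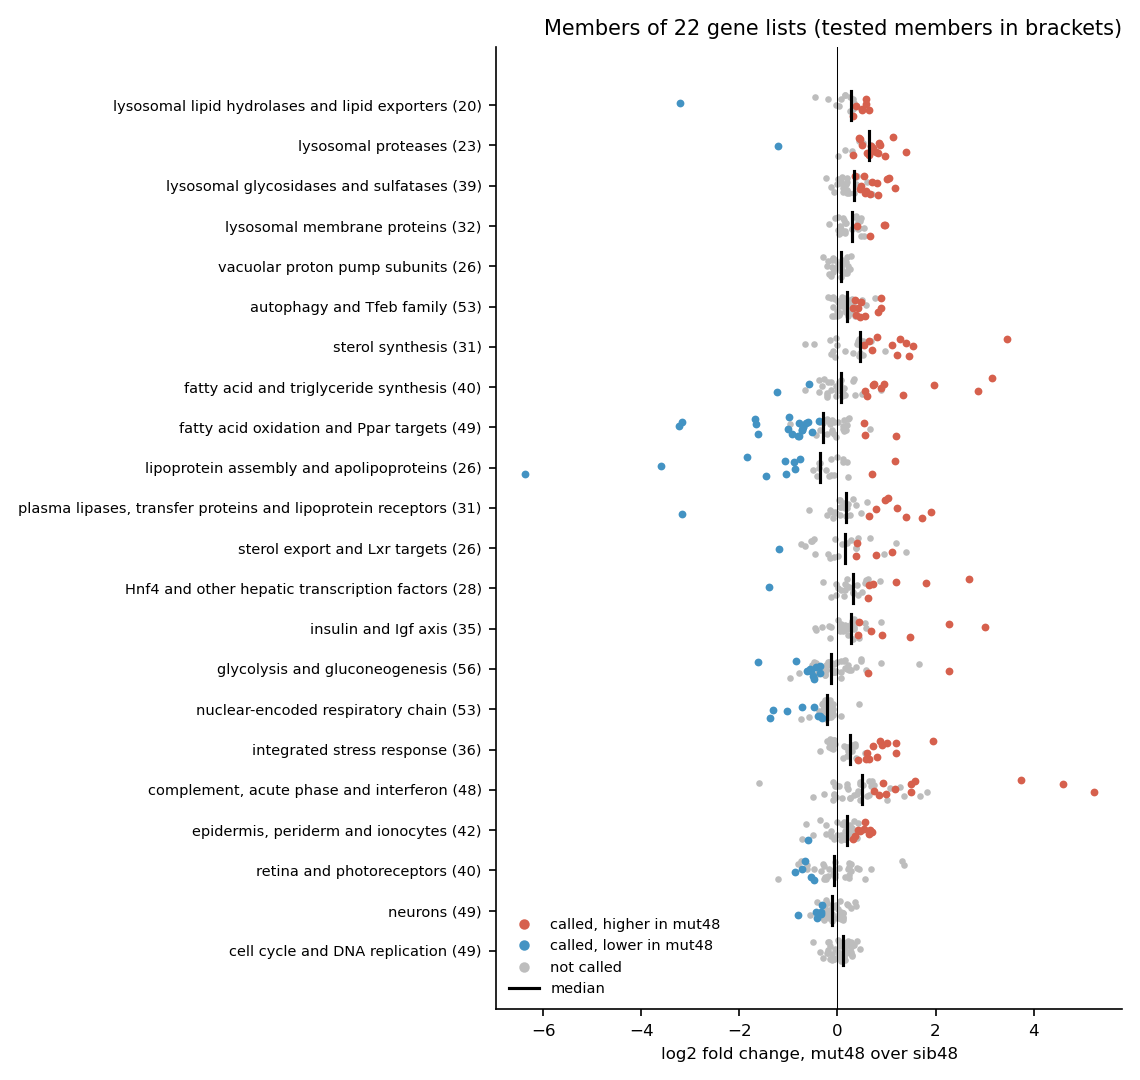
Log2 fold change, mut48 over sib48, of every tested member of 22 gene lists, with called genes coloured by direction and a bar at the median of each list. The medians run from 0.64 for lysosomal proteases to -0.36 for lipoprotein genes, against 0.00 over all tested genes.

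Several genes of lipoprotein particles were lower, among them those of apolipoproteins A-IV, E and C, while those of apolipoprotein A-I were not called and those of apolipoprotein B differed in their calls. Of 26 tested genes of lipoprotein assembly and apolipoproteins 9 were lower and 2 higher (median log2 fold change -0.36). The intestinal and yolk apolipoprotein gene apoa4b.2 nearly vanished, at 0.192, 0.145, 0.531 and 0.291 CPM in mut48 and 28.2, 20.5, 12.5 and 37.2 CPM in sib48, 83.0-fold lower (log2 fold change -6.37 with SE 0.413, adjusted p = 5.93e-06 by edgeR), with 50 reads in the 4 mut48 libraries and 3905 in the 4 sib48 libraries. Its neighbour apoa4b.1 was at 72.9, 49.8, 77.3 and 61.4 CPM in mut48 and 205, 195, 139 and 174 CPM in sib48. That was a 2.73-fold decrease (log2 fold change -1.45 with SE 0.146, adjusted p = 0.000155 by edgeR), and apoa4a was 3.60-fold lower at 1.68, 0.820, 3.36 and 2.35 CPM in mut48 and 9.58, 5.45, 5.43 and 9.21 CPM in sib48 (log2 fold change -1.85 with SE 0.355, adjusted p = 0.0125 by edgeR). The reads of such close copies may be assigned between them, since the handling of reads with several matches was not given in the sources used here. Apolipoprotein E, the ligand by which receptors take up remnant particles, has the copies apoea and apoeb in fish. The apoea transcript was at 7.22, 5.76, 19 and 3.9 CPM in mut48 and 152, 96.2, 76.1 and 111 CPM in sib48, 12.1-fold lower (log2 fold change -3.59 with SE 0.408, adjusted p = 0.000393 by edgeR), with mut48 replicate 3 the highest mutant. The apoeb transcript was 1.83-fold lower at 165, 163, 197 and 122 CPM in mut48 and 383, 253, 269 and 279 CPM in sib48 (log2 fold change -0.87 with SE 0.15, adjusted p = 0.00729 by edgeR). It is also expressed by macrophages, and was the only called gene of 34 tested macrophage and neutrophil genes. That was 2.94% of the list, against 5.12% of all tested genes called in either direction.

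The activator of lipoprotein lipase, apoc2, was at 29.5, 29.7, 46.4 and 37.9 CPM in mut48 and 95.9, 64.8, 59.7 and 76.2 CPM in sib48. The transcript fell 2.07-fold (log2 fold change -1.05 with SE 0.168, adjusted p = 0.00473 by edgeR), and apoc1 was 1.85-fold lower (log2 fold change -0.89, adjusted p = 0.0143 by edgeR). The transfer protein gene mttp, which loads lipid onto apolipoprotein B, was 1.70-fold lower at 12.5, 11.9, 9.02 and 12.3 CPM in mut48 and 21.9, 22.3, 16.9 and 16.9 CPM in sib48 (log2 fold change -0.77 with SE 0.141, adjusted p = 0.01 by edgeR), and pla2g12b, needed for the expansion of these particles in zebrafish, was 2.09-fold lower at 34.9, 47.8, 46.9 and 29.9 CPM in mut48 and 118, 79.4, 73.4 and 63.2 CPM in sib48 (log2 fold change -1.06 with SE 0.191, adjusted p = 0.00870 by edgeR). Of the copies of apolipoprotein B, the scaffold of the particle, apobb.1 and apoba were not called and were chosen after their values were seen. The apobb.1 transcript was at 645, 704, 914 and 756 CPM in mut48 and 1468, 1095, 801 and 900.3 CPM in sib48 (log2 fold change -0.50 with SE 0.166, adjusted p = 0.105 by edgeR) and apoba at 139, 168, 157 and 145 CPM in mut48 and 282, 196, 144 and 166 CPM in sib48 (log2 fold change -0.37, adjusted p = 0.223 by edgeR), with the highest value of each in sib48 replicate 1. The apoa1a (log2 fold change -0.13, adjusted p = 0.618 by edgeR) and apoa1b (log2 fold change -0.17, adjusted p = 0.541 by edgeR) transcripts of high-density particles overlapped between genotypes. The 2 higher genes were apobb.2, which was 2.26-fold higher at 50.9, 53, 64.0 and 58.1 CPM in mut48 and 34.7, 24.1, 18.8 and 22.4 CPM in sib48 (log2 fold change 1.18 with SE 0.158, adjusted p = 0.00138 by edgeR), and apodb, 1.63-fold higher (log2 fold change 0.71, adjusted p = 0.0131 by edgeR). With all 16 libraries in one fit the list had 3 genes lower and 1 higher. Of its 11 called genes only apoa4b.2 (0.0214) and apodb (0.0417) kept an edgeR adjusted p under 0.05 in that fit, while the others had from 0.0575 for apoea to 0.582 for pla2g12b. The log2 fold changes in that fit stayed close to those above, at -3.63 for apoea, -1.11 for pla2g12b and 1.13 for apobb.2. Summed over 26 marker genes of the yolk syncytial layer, the level was 2547 to 3565 CPM in mut48 and 2776 to 4376 CPM in sib48, and the 20 of them outside the lipoprotein list summed to 1395 to 1995 CPM in mut48 and 1266 to 1789 CPM in sib48. Both ranges overlapped between genotypes. The part of the yolk syncytial layer in these levels was not tested.

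Several genes that act on lipoproteins in the circulation were higher. Of 31 tested genes for plasma lipases, transfer proteins and lipoprotein receptors 8 were higher and 1, angptl4, was lower (median log2 fold change 0.18). The endothelial lipase gene lipg, whose product cuts phospholipid of high-density particles, was at 97.6, 102, 100.97 and 88.6 CPM in mut48 and 23.6, 27.8, 25.2 and 26.8 CPM in sib48. The transcript rose 3.76-fold (log2 fold change 1.91 with SE 0.0832, adjusted p = 1.75e-07 by edgeR). The lipoprotein lipase gene lpl, whose product frees fatty acids at the vessel wall, was at 137, 177, 144 and 138 CPM in mut48 and 39.8, 46.8, 46.2 and 46.9 CPM in sib48, 3.31-fold higher (log2 fold change 1.73 with SE 0.0987, adjusted p = 2.33e-06 by edgeR). Neither gene's groups came near each other. The cholesteryl ester transfer protein gene cetp was 2.64-fold higher at 8.94, 15.6, 9.75 and 9.59 CPM in mut48 and 6.02, 3.61, 3.28 and 3.68 CPM in sib48 (log2 fold change 1.4 with SE 0.230, adjusted p = 0.00557 by edgeR), with mut48 replicate 2 the highest. The scavenger receptor gene stab2 of endothelium was 1.95-fold higher at 49.0, 48.4, 74.5 and 39.2 CPM in mut48 and 26.9, 23.4, 26.7 and 31.3 CPM in sib48 (log2 fold change 0.96 with SE 0.167, adjusted p = 0.00739 by edgeR). The summed level of 38 endothelial genes was 1056 to 1167 CPM in mut48 and 905 to 973 CPM in sib48, without overlap. Of these genes 4, or 10.5%, were called higher, against 3.05% of all tested genes. They include stab2, which is thus part of the sum. Defining endothelial markers kdrl, cdh5 and fli1a were not called (log2 fold changes 0.22, 0.27 and 0.24). The part of endothelial cells in the levels of lipg, lpl and stab2 was not tested. The number of higher genes in the list of plasma lipases, transfer proteins and receptors was 5 without sib48 replicate 2, 3 or 4. For cetp, the call was lost with all 16 libraries in one fit (edgeR adjusted p = 0.136).

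Of 26 tested genes of sterol export and targets of the oxysterol receptor Lxr, 4 were higher and 1 lower (median log2 fold change 0.15). The higher genes included mylipa, described above, the phospholipid transfer protein gene pltp (17.1, 30.2, 21.8 and 19 CPM in mut48 and 14.8, 12.3, 13.1 and 11.2 CPM in sib48, log2 fold change 0.78 with SE 0.165, adjusted p = 0.0194 by edgeR) and the Lxr partner gene rxraa (25.3, 27.1, 29.4 and 28.5 CPM in mut48 and 21.2, 20.6, 19.8 and 22.6 CPM in sib48, log2 fold change 0.39 with SE 0.0876, adjusted p = 0.0259 by edgeR). The lower gene was smpdl3b, for a phosphodiesterase of the cell surface (4.39, 3.71, 2.61 and 2.13 CPM in mut48 and 7.18, 7.36, 6.54 and 8.14 CPM in sib48, log2 fold change -1.19 with SE 0.216, adjusted p = 0.00948 by edgeR). The calls of pltp and rxraa were lost in 3 and 4 of the 8 fits without a library, with highest edgeR adjusted p-values of 0.0681 (without sib48 replicate 4) and 0.0881 (without sib48 replicate 3). Without sib48 replicate 2 or 3, only 1 gene of this list was higher.

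The Hnf4 genes were not called, while several factors that act with or against them in liver were. Of 28 tested genes of Hnf4 and other hepatic transcription factors 6 were higher and 1 lower (median log2 fold change 0.32). Chosen after their values were seen, hnf4a was at 6.23, 7.42, 5.37 and 5.55 CPM in mut48 and 6.64, 4.21, 3.80 and 1.92 CPM in sib48 (log2 fold change 0.57 with SE 0.288, adjusted p = 0.280 by edgeR) and hnf4b at 2.71, 4.68, 2.43 and 4 CPM in mut48 and 4.10, 3.54, 4.21 and 2.17 CPM in sib48 (log2 fold change -0.024 with SE 0.264, adjusted p = 0.971 by edgeR). For both the groups overlapped. The gene nr0b2a, for a small receptor known in mammals to repress bile acid synthesis, was at 22.8, 36.3, 19 and 32.4 CPM in mut48 and 6.72, 3.44, 3.35 and 3.79 CPM in sib48. This amounted to a 6.39-fold rise (log2 fold change 2.67 with SE 0.256, adjusted p = 0.000102 by edgeR). The Cebp family genes cebpb (17.6, 19.98, 23.2 and 13.4 CPM in mut48 and 7.56, 9.61, 7.79 and 7.48 CPM in sib48, log2 fold change 1.19 with SE 0.164, adjusted p = 0.00168 by edgeR) and cebpg (52.0, 66.1, 77.2 and 62.1 CPM in mut48 and 39.9, 43.9, 39.5 and 41.7 CPM in sib48, log2 fold change 0.64 with SE 0.108, adjusted p = 0.00638 by edgeR) were higher. The creb3l3 genes, for membrane-bound factors that control apolipoprotein genes in mammals, differed among themselves. The abundant creb3l3l was at 61.9, 75.5, 99.7 and 96.5 CPM in mut48 and 54.0, 54.0, 52.4 and 55.6 CPM in sib48 (log2 fold change 0.63 with SE 0.129, adjusted p = 0.0170 by edgeR), creb3l3b was 3.50-fold higher and creb3l3a 2.63-fold lower. The calls of creb3l3l, creb3l3b and creb3l3a were lost in 3, 4 and 6 of the 8 fits without a library, with edgeR adjusted p-values up to 0.0596, 0.0667 and 0.0966. Without sib48 replicate 2, 3 or 4, the higher genes of the list numbered 3.

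Several genes of the insulin and Igf axis, which couples nutrients to growth, were higher. Of 35 tested members 7 were higher and 0 lower (median log2 fold change 0.27). The gluconeogenic gene pck1 was at 19.4, 42.2, 45 and 43 CPM in mut48 and 13.2, 4.80, 8.06 and 4.87 CPM in sib48, 4.82-fold higher (log2 fold change 2.27 with SE 0.329, adjusted p = 0.00241 by edgeR), with mut48 replicate 1 the lowest mutant. The gene igfbp1b, whose product binds growth factors of the Igf family, was at 2.90, 5.59, 1.17 and 1.84 CPM in mut48 and 0.247, 0.335, 0.498 and 0.330 CPM in sib48. Its level was 8.06-fold higher (log2 fold change 3.01 with SE 0.474, adjusted p = 0.00417 by edgeR). The transcription factor gene foxo3a was 1.35-fold higher at 95.2, 103, 104 and 113 CPM in mut48 and 77.0, 74.3, 75.8 and 80.6 CPM in sib48 (log2 fold change 0.43 with SE 0.0744, adjusted p = 0.00697 by edgeR), and the insulin receptor substrate gene irs2a 1.89-fold higher at 17.3, 16.7, 21.2 and 25.8 CPM in mut48 and 12.8, 11.1, 9.01 and 9.95 CPM in sib48 (log2 fold change 0.92 with SE 0.158, adjusted p = 0.00714 by edgeR). The groups did not overlap in these 4 genes. The related igfbp1a was highest in mut48 replicate 3 at 19.1, 24.2, 68.1 and 19.4 CPM in mut48 and 10.4, 11.7, 13.9 and 10.8 CPM in sib48 (log2 fold change 1.48 with SE 0.351, adjusted p = 0.0323 by edgeR), and at a log2 fold change of 0.83 without that library. Its call was lost without any 1 of the sib48 libraries (highest edgeR adjusted p 0.0981, without sib48 replicate 4). Without sib48 replicate 4 the list had 4 higher genes. When all 16 libraries were fitted together, pck1 lost its call (edgeR adjusted p = 0.0810).

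Other genes of energy metabolism were mostly lower or not called. Of all tested genes 2.07% were called lower and 3.05% higher. Among 56 tested genes that break down or make glucose, 10 were lower and 2 higher (median log2 fold change -0.13), led by pdk4 and by the lactate dehydrogenase gene ldha (154, 136, 153 and 119.7 CPM in mut48 and 259, 245, 238 and 263 CPM in sib48, log2 fold change -0.84 with SE 0.0886, adjusted p = 0.000215 by edgeR). Of 53 nuclear-encoded genes of the respiratory chain 51 had a negative log2 fold change (median -0.22). By edgeR 8 (15.1%) were called lower and 0 higher. They were led by ndufa4 (30.5, 28.1, 37.2 and 47.2 CPM in mut48 and 114, 72.0, 89.1 and 96.5 CPM in sib48, log2 fold change -1.38 with SE 0.166, adjusted p = 0.000625 by edgeR) and cox6b1 (10.8, 8.2, 13.2 and 13.5 CPM in mut48 and 31.9, 21.5, 31.4 and 28.8 CPM in sib48, log2 fold change -1.31 with SE 0.168, adjusted p = 0.000978 by edgeR), both of the terminal oxidase. By the RefSeq gene table ldha lies on the chromosome of pla2g15 and ndufa4 on that of lipf. The respiratory chain count depended on single libraries, with 2 lower genes without sib48 replicate 4, 4 without mut48 replicate 2, 3 or 4 or sib48 replicate 2 or 3, and 12 without sib48 replicate 1. Of 12 mitochondrially encoded genes edgeR called 1 lower, mt-nd1 (log2 fold change -0.38 with SE 0.0832, adjusted p = 0.0220 by edgeR). Its call was lost in 4 of the 8 fits without a library (highest edgeR adjusted p 0.0782, without sib48 replicate 2). All 12 had a negative log2 fold change (median -0.20). An unadjusted p under 0.05 was found for 7, DESeq2 called 3 lower, and edgeR called 4 lower with all 16 libraries in one fit.

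Retinoid, phospholipid and fatty acid binding genes changed at a few members. Of all tested genes 2.07% were called lower and 3.05% higher. Of 38 tested retinoid genes 4 were lower and 2 higher (10.5% and 5.26%, median log2 fold change 0.01). They were led by the cellular retinol binding protein genes rbp2a and rbp2b. The rbp2a transcript was at 0.887, 1.42, 0.619 and 0.630 CPM in mut48 and 11.4, 9.90, 5.8 and 8.94 CPM in sib48, 10.1-fold lower (log2 fold change -3.34 with SE 0.296, adjusted p = 5.54e-05 by edgeR). The rbp2b transcript was at 1.56, 1.93, 1.90 and 0.993 CPM in mut48 and 10.32, 11.1, 8.38 and 10.23 CPM in sib48, 6.26-fold lower (log2 fold change -2.65 with SE 0.211, adjusted p = 2.38e-05 by edgeR). Neither exceeded 2 CPM in any mutant library. Without sib48 replicate 4, only rbp2a and rbp2b were lower, and none of the list was higher without sib48 replicate 1, 2 or 4. Of 47 tested phospholipid genes 6 were lower and 1 higher (12.8% and 2.13%, median -0.04). They were led by gpx4a, which protects membrane lipid from peroxidation (44, 42.6, 32.4 and 36 CPM in mut48 and 93.1, 66.8, 73.6 and 71.4 CPM in sib48, log2 fold change -0.97 with SE 0.123, adjusted p = 0.000854 by edgeR), and gpcpd1 (log2 fold change -0.64, adjusted p = 0.00150 by edgeR). Of 8 fatty acid binding protein genes fabp2 of the intestine was lower (7.82, 15.1, 9.42 and 13.4 CPM in mut48 and 29.8, 28.0, 20.9 and 26.4 CPM in sib48, log2 fold change -1.2 with SE 0.190, adjusted p = 0.00444 by edgeR), while fabp3 and fabp7a (log2 fold change 0.57, adjusted p = 0.0158 by edgeR) were higher. The call of fabp7a was lost without sib48 replicate 3 (edgeR adjusted p = 0.0512). In the fit of all 16 libraries the calls of fabp7a, fabp2, gpx4a and rbp2b were lost (edgeR adjusted p = 0.112, 0.474, 0.294 and 0.0946). The 17 intestinal markers summed to 141 to 176 CPM in mut48 and 229 to 239 CPM in sib48, without overlap, and 3 of 13 tested were lower: rbp2a, fabp2 and agr2 (log2 fold change -0.96, adjusted p = 0.00239 by edgeR). The sum includes these 3 genes, and agr2 is also on the hatching gland list. Defining intestinal markers vil1 (log2 fold change -0.21, adjusted p = 0.715 by edgeR) and cdx1b (log2 fold change -0.84, adjusted p = 0.0894 by edgeR) were not called. The part of intestinal cells in these levels was not tested.

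Several stress genes were higher in the mutants, and some of them were highest in mut48 replicate 3. Of 36 tested genes of the integrated stress response, which slows translation and turns on amino acid genes, 12 were higher and 0 lower (median log2 fold change 0.25). The cystathionine synthase gene cbsb was at 111, 117.2, 141 and 121 CPM in mut48 and 60.2, 69.3, 64.0 and 66 CPM in sib48, 1.89-fold higher (log2 fold change 0.92 with SE 0.0875, adjusted p = 0.000102 by edgeR). The gene ddit3, for a factor induced by lasting stress, was at 39.2, 48.8, 117.3 and 66 CPM in mut48 and 19.6, 20.01, 15.6 and 15.1 CPM in sib48. That was a 3.86-fold increase (log2 fold change 1.95 with SE 0.276, adjusted p = 0.00208 by edgeR). Without mut48 replicate 3 its log2 fold change was 1.55 (edgeR adjusted p = 0.000301). Named after their values were seen, atf5a (log2 fold change 0.80, adjusted p = 0.00776 by edgeR) and sesn2 (log2 fold change 1.02, adjusted p = 0.0143 by edgeR) were higher, and atf4a, at 182, 203, 226 and 197 CPM in mut48 and 153, 172, 162 and 173 CPM in sib48, was not called (log2 fold change 0.29 with SE 0.0811, adjusted p = 0.0598 by edgeR). Of 34 genes of folding in the endoplasmic reticulum edgeR called herpud1 higher (29.7, 33.9, 38.3 and 30.8 CPM in mut48 and 17.5, 21, 19.4 and 24 CPM in sib48, log2 fold change 0.70 with SE 0.116, adjusted p = 0.00579 by edgeR) and 0 lower. This was 2.94% of the list, near the 3.05% of all tested genes called higher. Of the 34, 22 had a negative log2 fold change and 16 an unadjusted p under 0.05, and the lower calls numbered 2 without mut48 replicate 3, 3 without sib48 replicate 1, 5 by DESeq2 and 8 with all 16 libraries in one fit. In that list the chaperone gene hspa5, chosen after its values were seen, ran from 197 to 524 CPM in mut48 and from 288 to 396 CPM in sib48. Of 27 cytosolic heat shock genes 1, unc45b, was lower (log2 fold change -0.73, adjusted p = 0.0474 by edgeR), a call lost in 5 of the 8 fits without a library (highest edgeR adjusted p 0.109, without sib48 replicate 4). It made up 3.7% of that list, against 2.07% of all tested genes called lower. Of 32 p53 and apoptosis genes 5 were higher and 0 lower, led by sesn1 (47.2, 57.9, 49.7 and 51.7 CPM in mut48 and 32.7, 29.7, 28.4 and 29.8 CPM in sib48, log2 fold change 0.78 with SE 0.0864, adjusted p = 0.000339 by edgeR), and 3 were higher without mut48 replicate 3 or sib48 replicate 1, 2 or 3. The 5 genes were 15.6% of the list, against 3.05% of all tested genes called higher. They include sesn2, named above, and isg15, given below with the interferon genes.

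Interferon and complement genes were higher in the mutants, with 1 library far above the rest. Of 48 tested genes of complement, acute phase and interferon 11 were higher and 0 lower (median log2 fold change 0.49), and 9 were higher without mut48 replicate 3, 5 without sib48 replicate 3 or 4, and 14 without mut48 replicate 1 or 4. The interferon-induced gene isg15 was at 1.68, 2.80, 23.5 and 1.79 CPM in mut48 and 0.247, 0.191, 0.136 and 0.220 CPM in sib48 (log2 fold change 5.22 with SE 0.934, adjusted p = 0.00864 by edgeR). Its log2 fold change was 3.38 without mut48 replicate 3 (edgeR adjusted p = 0.000525), and the other mutants also lay above every sibling. The interferon regulator irf1b was at 1.15, 2.27, 31.1 and 1.94 CPM in mut48 and 0.148, 0.693, 0.476 and 0.165 CPM in sib48 (log2 fold change 4.59 with SE 1.06, adjusted p = 0.0278 by edgeR) and the peptide transporter gene tap1 at 1.2, 0.675, 13.7 and 0.606 CPM in mut48 and 0.148, 0.382, 0.408 and 0.247 CPM in sib48 (log2 fold change 3.75 with SE 0.977, adjusted p = 0.0465 by edgeR). Without mut48 replicate 3 the log2 fold changes were 2.25 for irf1b (edgeR adjusted p = 0.0338) and 1.46 for tap1 (edgeR adjusted p = 0.129). Both calls were lost without any 1 of the sib48 libraries, with edgeR adjusted p-values up to 0.0957 and 0.130. Complement genes cfb and c4b, chosen after their values were seen, were highest in mut48 replicate 3 (log2 fold changes 1.59 and 1.49, edgeR adjusted p = 0.0197 and 0.0228). Both lost their calls without sib48 replicate 2, 3 or 4 and with the replicate number as a block. So did cfb with all 16 libraries in one fit (edgeR adjusted p = 0.354) and c4b without mut48 replicate 2. The signal transducer gene stat1a rose evenly, at 15.1, 13, 16.7 and 15.9 CPM in mut48 and 9.06, 8.03, 7.04 and 6.54 CPM in sib48, 1.98-fold higher (log2 fold change 0.98 with SE 0.136, adjusted p = 0.00169 by edgeR).

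Of 48 immediate early genes, which respond within minutes to handling or growth signals, 12 (25%) were higher and 1 (2.08%) lower. The shares of all tested genes were 3.05% and 2.07%. But only 2 were higher without sib48 replicate 4, 3 without sib48 replicate 2, 5 without sib48 replicate 1 or 3 and 7 without mut48 replicate 3. Those with the smallest p were dusp6 (124, 142, 149 and 128 CPM in mut48 and 84.6, 93.8, 86.3 and 94.5 CPM in sib48, log2 fold change 0.60 with SE 0.0811, adjusted p = 0.00150 by edgeR) and the lower gene klf11b (4.6, 3.88, 3.36 and 4.46 CPM in mut48 and 18.5, 18.2, 16.7 and 18.1 CPM in sib48, log2 fold change -2.13 with SE 0.131, adjusted p = 3.59e-06 by edgeR). Its paralog klf11a, chosen after its values were seen, was lower as well, at 7.29, 8.15, 13.1 and 16.6 CPM in mut48 and 61.2, 52.1, 50.1 and 54.4 CPM in sib48, 4.81-fold lower (log2 fold change -2.27 with SE 0.216, adjusted p = 0.000102 by edgeR). In mut48 replicate 3, atf3 was at 44.3 CPM and fosab at 10.7 CPM, against at most 18.5 and 4.24 CPM in the other mutants. What set mut48 replicate 3 apart was not tested.

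**Figure D5:**
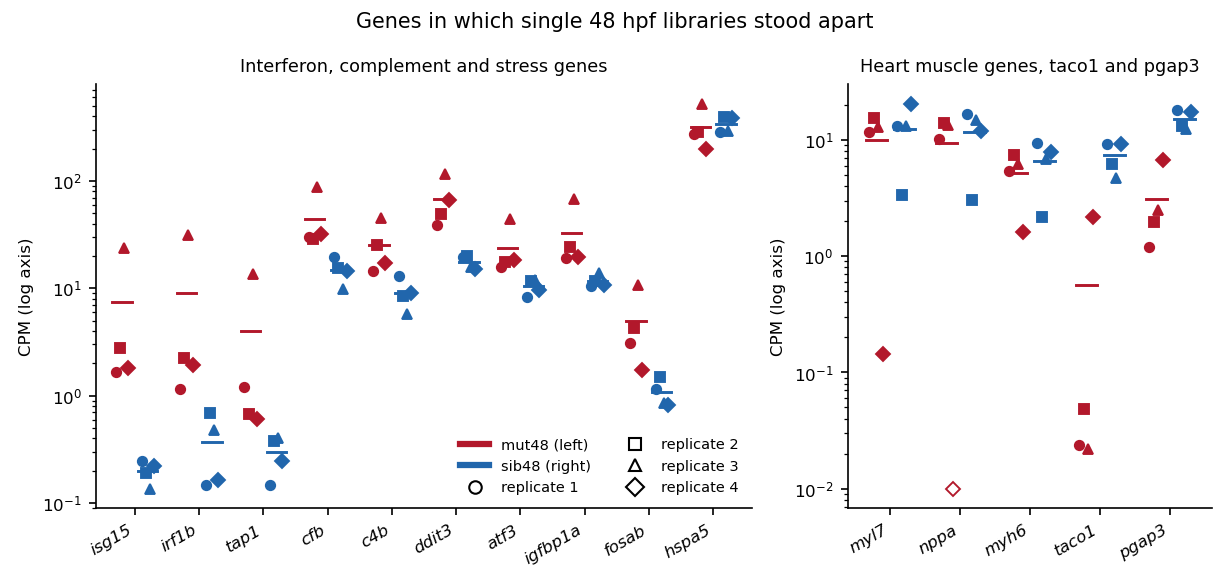
Level of 15 genes in each library (CPM on a log axis), mut48 to the left of sib48, with 1 symbol per replicate and a bar at the mean. The triangle of mut48 replicate 3 lies above the other mutants in the left panel, the diamond of mut48 replicate 4 lies lowest in myl7, nppa and myh6 and highest in taco1 and pgap3, and the open diamond marks nppa at 0.

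The summed markers of 5 tissues did not overlap between genotypes, namely intestine and endothelium, given above, epidermis, retina and neurons. The sums of the other marker lists overlapped. Of single tested genes, 13.7% had groups that did not overlap. The 44 genes of epidermis, periderm and ionocytes summed to 23951 to 27026 CPM in mut48 and 20614 to 22516 CPM in sib48, and 9 of 42 tested were higher and 1 lower, led by the keratin gene krt18b (log2 fold change 0.64, adjusted p = 0.00248 by edgeR) and the lower gene agr1 (log2 fold change -0.59, adjusted p = 0.00378 by edgeR). Without sib48 replicate 2 only 4 were higher. In the main fit 21.4% of the list was higher and 2.38% lower, against 3.05% and 2.07% of all tested genes. The keratin gene krt4 was a large part of the sum, at 11201 to 11827 CPM in mut48 and 8803 to 10609 CPM in sib48. It was not called (adjusted p = 0.0654 by edgeR). The 54 retina genes summed to 493 to 581 CPM in mut48 and 660 to 735 CPM in sib48, with 5 of 40 tested lower. The number was 3 without mut48 replicate 2 or sib48 replicate 2, 3 or 4. The 5 lower genes were 12.5% of the retina list, against 2.07% of all tested genes. These genes were led by the photoreceptor gene pde6gb (29.7, 25, 25.2 and 26.1 CPM in mut48 and 36.3, 36.5, 38.8 and 42 CPM in sib48, log2 fold change -0.54 with SE 0.0881, adjusted p = 0.00552 by edgeR) and otx5 (63.9, 53.7, 78.2 and 73.9 CPM in mut48 and 103, 101.1, 102 and 119.6 CPM in sib48, log2 fold change -0.66 with SE 0.112, adjusted p = 0.00670 by edgeR). For pde6gb, the call was lost with all 16 libraries in one fit (edgeR adjusted p = 0.119). The 50 neuronal genes summed to 5797 to 6313 CPM in mut48 and 6502 to 6827 CPM in sib48, and 6 of 49 tested were lower, among them tubb5 (log2 fold change -0.42, adjusted p = 0.00916 by edgeR) and stmn2b (log2 fold change -0.45, adjusted p = 0.0167 by edgeR). The 6 neuronal genes were 12.2% of their list, against the same 2.07%. The neuronal count was 2 without mut48 replicate 3 or sib48 replicate 3. It was 1 without mut48 replicate 2 or sib48 replicate 4, where stmn2b was lost (edgeR adjusted p up to 0.0577).

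Endothelial genes tie1 (36.1, 41.1, 40.8 and 33.1 CPM in mut48 and 27, 22.6, 24.7 and 22.9 CPM in sib48, log2 fold change 0.64 with SE 0.0975, adjusted p = 0.00351 by edgeR) and mrc1a (77.9, 71.0, 109 and 71.8 CPM in mut48 and 48.1, 48.3, 46.9 and 48 CPM in sib48, log2 fold change 0.78 with SE 0.122, adjusted p = 0.00395 by edgeR) were higher. Among 31 pigment cell genes 4 were higher and 1 lower, with paics of purine synthesis at 241, 308, 266 and 296 CPM in mut48 and 159, 157, 132 and 156 CPM in sib48 (log2 fold change 0.88 with SE 0.0942, adjusted p = 0.000239 by edgeR) and the lower pmelb (log2 fold change -0.43, adjusted p = 0.0203 by edgeR) lost without sib48 replicate 3 or 4 (edgeR adjusted p up to 0.0655). In 37 hepatocyte and plasma protein genes 7 were higher and 2 lower, led by hgd (log2 fold change 0.71, adjusted p = 0.00239 by edgeR) and bhmt (807, 1177, 1292 and 1151 CPM in mut48 and 766, 631, 529 and 641 CPM in sib48, log2 fold change 0.79, adjusted p = 0.00847 by edgeR), and 3 were higher without sib48 replicate 4. Only 1 pigment cell gene was higher without mut48 replicate 2 or sib48 replicate 2 or 3. Of 23 tested yolk syncytial layer genes 4 were higher and 7 lower, and 2 were higher without sib48 replicate 4. With all 16 libraries in one fit the yolk syncytial list had 1 higher and 2 lower, and the hepatocyte list 2 higher and 0 lower. In that fit the call of bhmt was lost (edgeR adjusted p = 0.680). Single calls among 62 skeletal muscle genes (acta1b lower, log2 fold change -0.93, adjusted p = 0.0161 by edgeR), 58 cartilage and matrix genes (sox9a higher, log2 fold change 0.37, adjusted p = 0.0421 by edgeR), 30 erythroid genes (cpox lower, log2 fold change -0.68, adjusted p = 0.0212 by edgeR) and the hatching gland (agr2) left these lists near the background. Each of the calls of acta1b, sox9a and cpox was lost without sib48 replicate 4, with edgeR adjusted p-values up to 0.0544, 0.122 and 0.0688. Of 43 clock genes bhlhe40 (log2 fold change 0.43, adjusted p = 0.0276 by edgeR) and dbpb (log2 fold change 0.77, adjusted p = 0.0314 by edgeR) were higher, and neither was called without mut48 replicate 2 or 3 or sib48 replicate 1 or 3 (edgeR adjusted p up to 0.0801 and 0.103). These 2 genes were 4.65% of the clock list, near the background. Of all tested genes 5.12% were called in either direction and 3.05% higher.

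Besides the proton pump, edgeR called 0 members of 4 lists. Among 49 cell cycle genes an unadjusted p under 0.05 was found for 10, DESeq2 called 2, and without mut48 replicate 4 edgeR called 9 higher. Among 46 lens crystallin genes an unadjusted p under 0.05 was found for 3, and DESeq2 called 2. Among 25 heart muscle genes an unadjusted p under 0.05 was found for 2 and DESeq2 called 0, and among 7 exocrine pancreas genes 1 and 0. Heart genes varied between libraries instead. The atrial and ventricular light chain gene myl7, chosen after its values were seen, was at 11.6, 15.5, 12.9 and 0.145 CPM in mut48 and 13, 3.35, 13.2 and 20.4 CPM in sib48, and the natriuretic peptide gene nppa, chosen likewise, at 10.17, 13.9, 13.5 and 0 CPM in mut48 and 16.6, 3.01, 14.7 and 12 CPM in sib48. These genes were nearly absent from mut48 replicate 4 and low in sib48 replicate 2.

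Ranked by fold change among called genes that had a symbol, non-overlapping groups and a level of at least 1 CPM, the 10 largest increases included those of arf4b, isg15, irf1b, tap1, agt, fads2, igfbp1b, sdr42e2 and scd. The gene arf4b, for a small GTPase of Golgi traffic, was at 7.91, 14.2, 35.9 and 19.4 CPM in mut48 and 0.198, 0.239, 0.204 and 0.302 CPM in sib48. The transcript rose 81.8-fold (log2 fold change 6.35 with SE 0.482, adjusted p = 1.57e-05 by edgeR), with 3345 reads in mut48 and 38 in sib48. It was close to absent from all 4 sibling libraries. The angiotensinogen gene agt was at 15.8, 18.9, 18.2 and 19.1 CPM in mut48 and 1.68, 3.68, 1.36 and 0.660 CPM in sib48, 9.68-fold higher (log2 fold change 3.28 with SE 0.357, adjusted p = 0.000285 by edgeR). The dehydrogenase gene sdr42e2 was at 14.7, 20.2, 15.1 and 13.6 CPM in mut48 and 1.58, 2.80, 3.06 and 1.04 CPM in sib48. This amounted to a 7.44-fold rise (log2 fold change 2.90 with SE 0.282, adjusted p = 0.000117 by edgeR). Over all tested genes, 3184 (13.7%) had groups that did not overlap.

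The 10 largest decreases under the same rule were those of apoa4b.2, taco1, apoea, rbp2a, bbox1, tmem86b, lipf, angptl4, dao.1 and ponzr4. The mitochondrial translation gene taco1 was at 0.0240, 0.0482, 0.0221 and 2.18 CPM in mut48 and 9.23, 6.21, 4.71 and 9.24 CPM in sib48 (log2 fold change -3.70 with SE 0.896, adjusted p = 0.0350 by edgeR). It was near 0 in 3 mutant libraries and higher in mut48 replicate 4. Its call was lost in 6 of the 8 fits without a library, which did not include the fit without mut48 replicate 4, where the log2 fold change was -7.75 (edgeR adjusted p = 6.93e-06). The same library was the highest mutant for pgap3, chosen after its values were seen, at 1.2, 1.98, 2.48 and 6.73 CPM in mut48 and 18.1, 13.1, 12.3 and 17.3 CPM in sib48 (log2 fold change -2.3 with SE 0.402, adjusted p = 0.00767 by edgeR). The lysoplasmalogenase gene tmem86b was low, at 0.144, 0.0964, 0 and 0.242 CPM in mut48 and 1.31, 1.86, 0.498 and 0.880 CPM in sib48 (log2 fold change -3.22 with SE 0.685, adjusted p = 0.0197 by edgeR), and lost its call without mut48 replicate 2 or sib48 replicate 2 (edgeR adjusted p up to 0.0760). The D-amino acid oxidase gene dao.1 was at 1.97, 1.35, 2.87 and 1.70 CPM in mut48 and 26.4, 4.59, 15.5 and 11.4 CPM in sib48 (log2 fold change -2.87 with SE 0.432, adjusted p = 0.00318 by edgeR) and varied widely among the siblings. Its call was lost with all 16 libraries in one fit (edgeR adjusted p = 0.0855). The gene ponzr4 was at 1.99, 2.60, 6.72 and 6.52 CPM in mut48 and 31.2, 20.7, 32.9 and 29.1 CPM in sib48 (log2 fold change -2.67 with SE 0.334, adjusted p = 0.000817 by edgeR).

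The shares of called genes on the chromosomes of the targeted genes were compared with those elsewhere, without a test. Chromosomes came from RefSeq's GRCz12tu annotation, a different build from that of the counts, and 80.1% of the tested genes had one. On the chromosome of lipf 52 of 676 tested genes (7.69%) were called, on that of pla2g15 49 of 573 (8.55%), and on all others 957 of 17412 (5.50%). At least 2-fold changes made up 2.07%, 1.57% and 1.06% in that order. Shares on single other chromosomes reached 7.36% on chromosome 6 and 7.31% on chromosome 19, and for 2-fold changes 1.99% on chromosome 19 and 1.9% on chromosome 20. Genes named here on the chromosome of lipf include scd, taco1, pgap3, ndufa4, nbr1a, pde6gb, sox9a, rbp4 and mxtx2. Those on the chromosome of pla2g15 include fads2, ldha, dusp6 and ckmt1. Alleles linked to a mutation and effects of the mutation itself cannot be told apart for such genes.

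For 11 of 32 named genes the genotype difference at 48 hpf differed from that at 24 hpf in a fit of all 16 libraries, where edgeR called this interaction for 244 of 24300 genes (1%). Most of the 32 were chosen for their change at 48 hpf, which favours such a difference, so their count cannot be read against that share. For lipg the log2 fold change was 0.29 at 24 hpf, and the difference 48 minus 24 hpf was 1.58 (edgeR adjusted p = 1.21e-06). For srebf1 these values were 0.67 and 1.27 (edgeR adjusted p = 0.000836), and for angptl4 -0.72 and -2.49 (edgeR adjusted p = 0.000836). The lysosomal genes lamp1a and tpp1 also differed, by 0.67 and 0.66 (edgeR adjusted p = 0.00138 and 0.0110). For lipf the difference was -0.019 (edgeR adjusted p = 0.994), with a log2 fold change of -3.22 at 24 hpf. For insig1 it was 0.60 (edgeR adjusted p = 0.154) and for apoa4b.2 -5.005 (edgeR adjusted p = 0.208), so neither is shown to be particular to 48 hpf.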

How the data were processed

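The deposited table holds whole-number read counts per gene, 1 column per library, which the authors had neither normalised nor pooled, and which sum to 38188286 to 45338682 per library. Per the submitters' processing notes the genome build was GRCz11 and the tools were STAR 2.7.10b, featureCounts 2.0.6, FastQC 0.12.1 and Trim Galore 0.6.10. Per the labels' protocols, total RNA was extracted with TRIzol and libraries were made with the VAHTS Universal V8 kit. The annotation, strand setting and handling of reads with several matches were not given in the sources used here. Levels of close copies, overlapping genes and antisense pairs are therefore uncertain.

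Genes were kept by filterByExpr, which left 23306 of 36109 and removed 12803. Genotypes were compared with edgeR 4.0.16 in R 4.3.3 by its quasi-likelihood F-test after TMM scaling, on these 8 libraries with 1 mean per genotype. P-values were adjusted by Benjamini-Hochberg over all tested genes. The interaction with age used all 16 libraries and 24300 genes. On simulated counts 25.4%, 71.6% and 98.5% of genes changed by log2 0.5, 1 and 2 were recovered in the 48 hpf comparison, over 67, 67 and 66 genes, and 7.14% of calls were false. Since the reads carry no molecular identifiers, the spread between libraries was used as the error. Same-numbered libraries did not deviate together.

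The comparison, the gene lists (45, of which 14 are core lists) and the rule for naming genes were chosen with earlier results of these data known. Of 1763 list entries 1692 matched a gene, 45 through a synonym. Named were lipf, pla2g15, the 10 largest changes each way (called, with a symbol, at least 1 CPM, groups apart), 4 called members of each core list and 2 of each other list by smallest p (for a core list with none, 1). Other called members of core lists may be named too, and 40 further genes were chosen after their values were seen. Some genes that were analysed are not reported here. The settings tried besides were DESeq2 1.42.0, scaling by RLE or by the upper quartile, a stricter filter (at least 1 CPM in 4 libraries) or none, the replicate number as a block, all 16 libraries in 1 fit, a minimum absolute log2 fold change of 1, and leaving out each library.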

Additional observations from a re-analysis of the deposited data

Results flagged for a closer look

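For each of the named genes, the highest and the lowest of the 4 libraries of a genotype were compared with the rest by Dixon's criterion. Of 282 groups looked at, 22 held a library that stood apart, where chance gives about 1 in 20. The count cannot be read against that share. The genes were named for their values in these same libraries, 40 of them after those values were seen, and genes of 1 library need not vary independently. In mut48 replicate 3, isg15 stood at 23.5 CPM, irf1b at 31.1 CPM, tap1 at 13.7 CPM, atf3 at 44.3 CPM and cfb at 87.1 CPM, each above the other mutants. In mut48 replicate 4, taco1 was high at 2.18 CPM and hadhaa low at 7.82 CPM. In mut48 replicate 2, lpl stood at 177 CPM, cetp at 15.6 CPM and glmp at 17.9 CPM, each above the other mutants. In mut48 replicate 1, pck1 was low at 19.4 CPM and atp6ap1b low at 41.5 CPM. In sib48 replicate 1, lgmn at 104 CPM, cetp at 6.02 CPM and nr0b2a at 6.72 CPM were high, while lpl at 39.8 CPM and ctsba at 80.2 CPM were low. In sib48 replicate 2 cebpb was high at 9.61 CPM, and in sib48 replicate 3 paics was low at 132 CPM. In sib48 replicate 4, otx5 at 119.6 CPM, crx at 101 CPM and mylipa at 18 CPM were high. Their causes were not tested.

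The genotype difference at 48 hpf differed from that at 24 hpf, by the interaction test of edgeR, for 11 of 32 genes, most of them chosen for their change at 48 hpf. The log2 fold change was larger at 48 hpf for irf1b by 6.22 (adjusted p = 0.0273), agt by 4.07 (adjusted p = 0.00332), sdr42e2 by 2.61 (adjusted p = 0.0460) and scd by 2.36 (adjusted p = 0.0434). It was also larger for fads2 by 1.77 (adjusted p = 0.0134), lipg by 1.58 (adjusted p = 1.21e-06), srebf1 by 1.27 (adjusted p = 0.000836), lamp1a by 0.67 (adjusted p = 0.00138) and tpp1 by 0.66 (adjusted p = 0.0110). It was more negative at 48 hpf for ponzr4 by -4.28 (adjusted p = 0.00451) and angptl4 by -2.49 (adjusted p = 0.000836). The value of irf1b rests in part on mut48 replicate 3.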

How the results depend on the processing

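Against 711 genes higher and 482 lower at 48 hpf, DESeq2 called 1242 and 1012, all 16 libraries in 1 fit 691 and 1115, and a minimum absolute log2 fold change of 1 left 150 and 122. RLE scaling gave 704 and 483, upper-quartile scaling 674 and 546, no filter 727 and 505 and the stricter filter 751 and 494. Leaving out 1 library gave 318 to 772 higher and 187 to 523 lower, with the fewest without sib48 replicate 2. For the interaction, against 118 and 126, DESeq2 called 464 and 436, no filter gave 126 and 51 and upper-quartile scaling 148 and 77, while leaving out 1 library of 48 hpf gave 52 to 149 and 31 to 209. Same-numbered libraries showed no shared deviation, with correlations of -0.0311, 0.00902, -0.0618 and 0.0119. The labels do not say whether these libraries were paired, and such correlations cannot decide it. With the replicate block edgeR called 439 higher and 273 lower, and 55 and 42 for the interaction.

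Of 199 named or core list genes called at 48 hpf, 108 kept the call in each of these settings other than the fold minimum, 91 lost it in at least 1, 64 of them in a fit without 1 library, and 0 changed sign. A change of sign was unlikely from the start, since these fits share most of the libraries in which the genes were called. With all 16 libraries in 1 fit 47 lost the call. Among genes that were not called, the sign turned for 6 when 1 library was left out. On the log2 scale these fits ran from -0.63 to 0.0947 for myl7, -0.62 to 0.11 for nppa, -0.20 to 0.11 for hnf4b, -0.22 to 0.00343 for apoa1a, -0.44 to 0.0804 for hspa5 and -0.42 to 0.0832 for ehhadh. Causes were not tested. The planned count of promoter motifs was not run, since no promoter sequences were used here. Depth limits genes under about 1 CPM, and genes changed by log2 0.5 were mostly missed on simulated counts.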

Other observations

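Several genes outside all the lists, chosen after their values were seen, were among those with the smallest p. The acyl-CoA synthetase gene acsbg2 was at 227, 258, 275 and 236 CPM in mut48 and 118, 111, 116 and 115 CPM in sib48 (log2 fold change 1.11 with SE 0.0775, adjusted p = 7.46e-06 by edgeR). The gene aacs, for an enzyme that turns acetoacetate into a precursor of lipid, was at 55.7, 69.1, 50.3 and 44.7 CPM in mut48 and 24, 23.5, 25 and 23.4 CPM in sib48 (log2 fold change 1.19 with SE 0.119, adjusted p = 0.000144 by edgeR). The gene mfsd2aa, for a carrier of lysophospholipid with long polyunsaturated chains, was at 15.3, 18, 25.3 and 18.6 CPM in mut48 and 6.69, 6.64, 5.8 and 7.81 CPM in sib48 (log2 fold change 1.52 with SE 0.160, adjusted p = 0.000212 by edgeR). All 4 mutants exceeded all 4 siblings in each of these genes. The gene ppp1r3b, which directs a phosphatase to glycogen, was lower at 6.19, 6.27, 5.40 and 7.36 CPM in mut48 and 19.4, 22.4, 22.3 and 21 CPM in sib48 (log2 fold change -1.76 with SE 0.121, adjusted p = 7.46e-06 by edgeR), as was the glucose-responsive gene txnipa at 83.3, 137, 74.1 and 87.0 CPM in mut48 and 252, 230.2, 251 and 239 CPM in sib48 (log2 fold change -1.35 with SE 0.156, adjusted p = 0.000454 by edgeR). The transcription factor genes crebrf (2.98-fold, log2 fold change 1.58, adjusted p = 3.1e-05 by edgeR), znf395a (2.25-fold, log2 fold change 1.17, adjusted p = 7.46e-06 by edgeR) and klf15 (1.84-fold, log2 fold change 0.88, adjusted p = 0.000754 by edgeR) were higher.

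Chosen in the same way, 3 genes were lower. The creatine synthesis gene gatm was at 93.7, 93.6, 79.8 and 83.8 CPM in mut48 and 183, 153, 125 and 174.6 CPM in sib48 (log2 fold change -0.86 with SE 0.113, adjusted p = 0.00122 by edgeR), the mitochondrial creatine kinase gene ckmt1 at 43.1, 40.3, 44.2 and 49.8 CPM in mut48 and 83.2, 65.6, 79.3 and 65.9 CPM in sib48 (log2 fold change -0.73 with SE 0.101, adjusted p = 0.00170 by edgeR) and the myoglobin gene mb at 16.9, 18.5, 16.4 and 17 CPM in mut48 and 31.8, 23.9, 35.3 and 37.2 CPM in sib48 (log2 fold change -0.90 with SE 0.127, adjusted p = 0.00212 by edgeR). In all 3 the groups did not overlap. With all 16 libraries in one fit the calls of gatm (edgeR adjusted p = 0.0558) and ckmt1 (edgeR adjusted p = 0.475) were lost. The muscle creatine kinase gene ckma was not called, at 3111 to 4200 CPM in mut48 and 3037 to 4829 CPM in sib48 (log2 fold change 0.022, adjusted p = 0.948 by edgeR). The summed level of 63 skeletal muscle genes was 62121 to 91900 CPM in mut48 and 70438 to 104925 CPM in sib48, and overlapped. The uncharacterised gene si:ch211-117k10.3 had the smallest p of the comparison, at 55.5, 55.4, 64.8 and 67 CPM in mut48 and 6.67, 9.15, 8.13 and 7.40 CPM in sib48, 7.74-fold higher (log2 fold change 2.95 with SE 0.116, adjusted p = 1.05e-07 by edgeR).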
